A study of Homo sapiens with 18 samples.

Results

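The 42 genes described here encode proteins that carry a cell through mitosis. They are the mitotic kinases and cyclins, the kinesins, and the proteins of the centromere, spindle checkpoint, spindle and cleavage site, all picked by name. The choice was made with earlier results of these data known. All 42 were found among the 58336 genes of the deposited count table, and all 42 passed the filter on low counts that left 19393 genes for testing. RNA came from HEK293A, a human cell line that goes back to embryonic kidney and grows attached to the dish. Cells labelled LATS1/2-DKO, in which the kinases LATS1 and LATS2 are both knocked out, were exposed for 4 h to 250 uM ZnCl2, to 50 uM CdCl2 or to water (H2O). Wild-type HEK293A cells had the same 3 exposures. Each of these 6 groups holds 3 libraries, described as biological replicates, and a p-value here reflects how far such libraries differ. The sources used here give neither how the knockout line was made nor whether it is 1 clone, so genotype and line cannot be told apart.

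In the Hippo pathway LATS1 and LATS2 phosphorylate the coactivators YAP and TAZ and so restrain them. Cells make most mitosis mRNAs in G2 and destroy many of the proteins at the end of mitosis, so in a growing culture these mRNAs come mainly from the cells that are about to divide. Genes of this kind are held off in quiescence and early in the cycle by the DREAM complex, and switched on later by a MuvB complex with MYBL2 and then FOXM1. Both kinds of complex act at a promoter element called the CHR, and the factor NF-Y acts at CCAAT boxes beside it. In bulk RNA, fewer cells in G2 and mitosis cannot be told apart from less of an mRNA per cell.

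Promoters are shown for 6 members that hold letters of the CHR, as did 31 of the 35 members with a promoter entry. Their changes with metal run from the strongest fall, in ESPL1, to a rise, in CDK1. Each is the 250 bases before a transcription start in RefSeq (GRCh38.p14), 5′ to 3′ on the gene's strand, with TTTGAA or TTTAAA (the CHR letters) and CCAAT in capitals wherever either strand reads them.
ESPL1 (chr12:53268049-53268298, plus strand): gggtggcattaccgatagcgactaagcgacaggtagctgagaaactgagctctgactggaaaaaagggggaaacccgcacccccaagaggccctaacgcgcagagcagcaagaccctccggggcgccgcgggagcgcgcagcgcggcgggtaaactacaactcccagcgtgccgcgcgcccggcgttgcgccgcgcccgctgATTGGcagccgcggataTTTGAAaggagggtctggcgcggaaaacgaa
PLK1 (chr16:23678639-23678888, plus strand): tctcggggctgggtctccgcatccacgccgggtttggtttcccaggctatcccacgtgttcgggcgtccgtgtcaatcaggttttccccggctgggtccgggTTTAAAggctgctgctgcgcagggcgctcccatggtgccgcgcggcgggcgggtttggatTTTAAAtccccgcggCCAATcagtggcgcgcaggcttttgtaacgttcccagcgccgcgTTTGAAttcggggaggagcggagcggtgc
CDC20 (chr1:43358731-43358980, plus strand): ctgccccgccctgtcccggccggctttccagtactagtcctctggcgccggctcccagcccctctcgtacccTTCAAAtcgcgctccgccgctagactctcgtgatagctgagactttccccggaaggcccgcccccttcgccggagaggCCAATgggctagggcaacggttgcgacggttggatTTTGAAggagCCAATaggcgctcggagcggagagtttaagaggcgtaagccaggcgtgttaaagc
KIF20A (chr5:138178862-138179111, plus strand): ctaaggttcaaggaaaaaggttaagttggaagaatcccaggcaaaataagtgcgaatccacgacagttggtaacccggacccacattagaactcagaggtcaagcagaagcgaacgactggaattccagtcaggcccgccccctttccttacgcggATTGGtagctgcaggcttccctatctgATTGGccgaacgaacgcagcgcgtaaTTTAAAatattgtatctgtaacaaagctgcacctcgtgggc
CENPE (chr4:103198344-103198593, minus strand): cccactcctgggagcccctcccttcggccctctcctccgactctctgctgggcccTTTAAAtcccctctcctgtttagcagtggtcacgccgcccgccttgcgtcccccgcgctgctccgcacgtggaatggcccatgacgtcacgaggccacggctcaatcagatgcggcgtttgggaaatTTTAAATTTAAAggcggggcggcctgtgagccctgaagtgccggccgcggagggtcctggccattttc
CDK1 (chr10:60778081-60778330, plus strand): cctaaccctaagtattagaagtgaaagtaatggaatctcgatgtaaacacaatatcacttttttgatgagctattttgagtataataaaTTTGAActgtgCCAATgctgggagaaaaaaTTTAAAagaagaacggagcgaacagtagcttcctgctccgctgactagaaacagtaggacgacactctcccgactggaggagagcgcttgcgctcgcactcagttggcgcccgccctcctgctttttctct

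The window shown for CDK1 precedes the more upstream of its 2 starts in that table, and its nearest CHR match lies 126 bases before that start. The window before the other start, not shown, has 2 CHR matches, the nearest 8 bases before the start, and 2 CCAAT. Of the 6 genes, ESPL1 has 1 CHR match, 26 bases before its start, and 1 CCAAT. PLK1 has 3 CHR matches, the nearest 24 bases before the start, and CENPE has 3 CHR matches and no CCAAT. Across the 35 members with an entry in the RefSeq table, 35 of 45 promoters (300 bases, 250 before to 50 after the start) held a CHR match, 77.8%, against 24.0% of all 35116 promoters. CCAAT stood in 75.6% of member promoters, against 34.6% of all. Both motifs together stood in 60.0% of member promoters, against 9.27% of all. These matches are counts of letters on either strand, where TTTAAA reads the same on both, and no binding was measured. No other letters were searched for the CHR, so a member without a match is not shown to lack the element. The 31 members with a CHR match had a median log2 change with zinc of -0.28 in LATS1/2-DKO and -0.23 in wild type. For the 4 members without one, AURKB, BUB1, CCNA2 and NEK2, the medians were -0.17 in LATS1/2-DKO and -0.17 in wild type. Those 4 ran from -0.58 to 0.04 in LATS1/2-DKO and from -0.69 to 0.20 in wild type. With cadmium the order was reversed in LATS1/2-DKO, with medians of -0.09 with a match and -0.17 without. In wild type the cadmium medians were -0.18 with a match and -0.14 without.

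Library totals ran from 25478614 to 37148046 counts. LATS1 lay at 44.0 to 54.5 CPM (counts over TMM-scaled library size) in the 9 LATS1/2-DKO libraries, against 77.3 to 97.3 CPM in the 9 wild-type libraries. LATS2 was lower in LATS1/2-DKO with zinc, at 36.0 to 40.4 CPM against 44.3 to 50.2 CPM in wild type, and with cadmium, at 23.8 to 25.7 CPM against 39.0 to 44.7 CPM, while in water it lay at 18.2 to 18.9 CPM in LATS1/2-DKO and at 16.2 to 16.5 CPM in wild type. Of 6 markers listed for HEK293 cells, NEFM and PAX2 were under 1 CPM in all 6 groups, and the summed level of the list was 2720 to 3040 CPM in LATS1/2-DKO libraries and 806 to 1030 CPM in wild-type libraries. KRT8 and KRT18 carried that difference, with KRT8 at 1630 to 1850 CPM in LATS1/2-DKO and 269 to 335 CPM in wild type, while VIM of the same list was lower in LATS1/2-DKO, at 174 to 233 CPM against 331 to 498 CPM. The 6 fibroblast markers summed to 49.5 to 62.8 CPM in LATS1/2-DKO, against 10.5 to 14.8 CPM in wild type, with DCN and THY1 under 1 CPM throughout. Keratinocyte markers, 5 of 6 of them under 1 CPM, summed to 19.3 to 28.1 CPM in LATS1/2-DKO and 19.6 to 25.7 CPM in wild type, which overlap. Blood markers, likewise 5 of 6 under 1 CPM, summed to 2.08 to 3.88 CPM in LATS1/2-DKO and 1.53 to 2.25 CPM in wild type. The part of the HEK293 and fibroblast markers, which move with genotype, in the genotype results was not tested. In wild type with zinc, replicate 3 differed from the other replicates (chi-square per degree of freedom 4.96 and 5.04, where replicates 1 and 2 had 1.88 with each other).

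The 42 mRNAs together took 0.613 to 0.818% of the counts in LATS1/2-DKO libraries and 0.564 to 0.714% in wild-type libraries. Their summed level was 6153, 6198 and 6400 CPM with zinc, 6933, 7033 and 7115 CPM with cadmium and 7736, 7675 and 7629 CPM in water for LATS1/2-DKO. Wild-type sums were 5784, 5986 and 5790 CPM with zinc, 5959, 6168 and 6171 CPM with cadmium and 6985, 6767 and 6948 CPM in water. In both genotypes the metal libraries lay below the water libraries without overlap, and zinc lay below cadmium in LATS1/2-DKO and overlapped with it in wild type. Per kilobase of exon in water, TOP2A, CDC20, TPX2 and CCNB1 led in both genotypes, at 131, 129, 124 and 116 CPM per kb in LATS1/2-DKO and at 103, 129, 95.3 and 106 CPM per kb in wild type. CDC25C and KIF14 were the lowest apart from PRC1, with 8.81 CPM per kb for KIF14 in LATS1/2-DKO and 9.22 CPM per kb for CDC25C in wild type. PRC1, a bundler of antiparallel microtubules at the midzone, read only 0.60 CPM per kb in LATS1/2-DKO and 0.75 CPM per kb in wild type. In the GENCODE 29 annotation 99.5% of PRC1 (chromosome 15, 90966038 to 90995629, GRCh38) lies under the gene AC068831.7 on the same strand, which had 13175 counts, and how reads shared by genes were counted is not given. The level of PRC1 and its changes are therefore uncertain. CENPA, the histone H3 variant of centromeres, lies 46.1% under SLC35F6 on its strand, and its values carry a like uncertainty. The counts used here pool both strands. Counts of the strand that holds most reads were 1.35 times the pooled counts for FOXM1 and 1.2 times for PLK1. They were 1.09 times for CCNA2 and KIF2C, 1.07 times for HMMR and at most 1.04 times for other members. Those named overlap a gene on the opposite strand, so their CPM levels may be too low.

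Zinc lowered most of the mitosis mRNAs. In LATS1/2-DKO 32 of the 42 genes fell and 3 rose, against a background of 27.7% lower and 28.2% higher among all tested genes. In wild type 27 fell and 9 rose, against 32.0% lower and 29.4% higher among all genes. The median log2 change of the 42 was -0.27 in LATS1/2-DKO and -0.22 in wild type, where the median of all genes was 0.001 and -0.011. These were mostly moderate changes: 1 member in LATS1/2-DKO and 2 in wild type were lower by 2-fold or more, beside 2.83% and 4.75% of all genes. A total of 25 members fell in both genotypes and 3 rose in both, namely CDK1, UBE2C and PRC1, while CENPA, CENPE and HMMR fell in LATS1/2-DKO and rose in wild type. The shares of all genes with these joint patterns are not given here. Across the 42 genes the zinc changes of the genotypes had a Pearson correlation of 0.83 and a Spearman correlation of 0.74, given as a description, since the genes share their libraries. Changes here and below are log2 fold changes ± standard error from edgeR's quasi-likelihood test, called at an adjusted p under 0.05. Zinc and cadmium were each compared with the same water libraries.

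**Figure D1:**
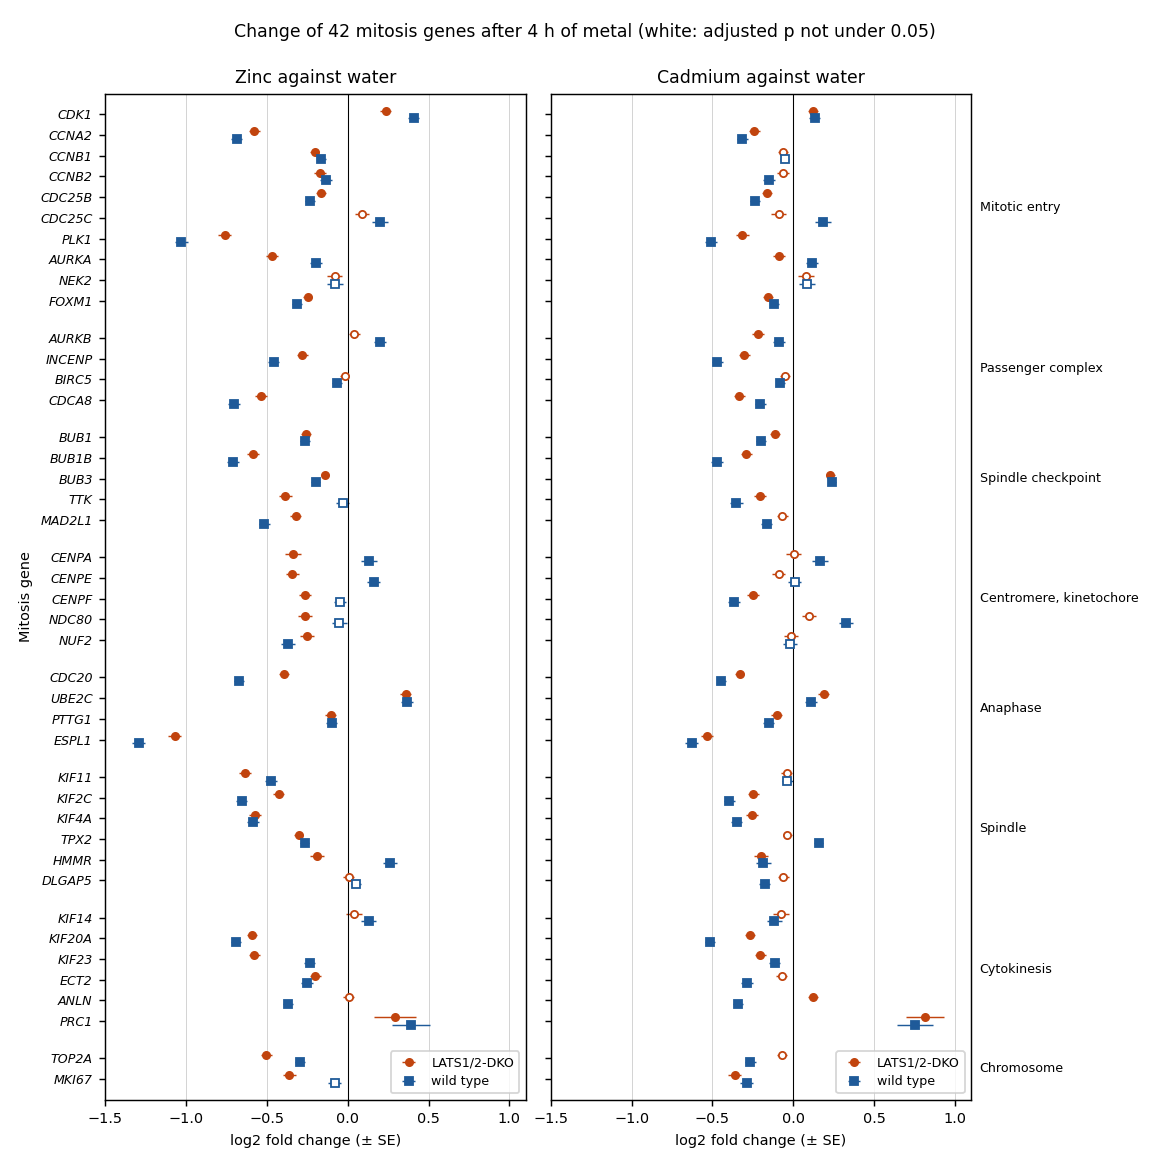
Log2 fold change (x axis, ± SE, n = 3 libraries per group) of the 42 mitosis genes (y axis, by role) with zinc, left, and cadmium, right, against water, in LATS1/2-DKO (circles) and wild type (squares). White symbols did not pass an adjusted p under 0.05. ESPL1 and PLK1 lie farthest to the left with zinc, at -1.07 and -0.76 in LATS1/2-DKO and -1.29 and -1.03 in wild type.

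The strongest fall was that of ESPL1, separase, the protease that cuts cohesin so that sister chromatids part. ESPL1 in LATS1/2-DKO stood at 97.9, 102 and 99.99 CPM with zinc, 146, 146 and 143 CPM with cadmium and 206, 213 and 211 CPM in water. Wild-type ESPL1 stood at 69.1, 76.3 and 83.7 CPM with zinc, 122, 119.98 and 122 CPM with cadmium and 186, 196 and 180.2 CPM in water. The 3 treatments did not overlap in either genotype, with zinc lowest and water highest. Its change with zinc was -1.07 ± 0.04 (adjusted p = 7.63e-24) in LATS1/2-DKO and -1.29 ± 0.04 (adjusted p = 3.71e-26) in wild type. ESPL1 mRNA with zinc was thus at 0.476 of its water level in LATS1/2-DKO and at 0.408 in wild type.

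PLK1, the polo-like kinase that acts from mitotic entry to cytokinesis, came second. For PLK1, LATS1/2-DKO libraries read 64.7, 68.7 and 71.6 CPM with zinc, 96.6, 92.7 and 90.1 CPM with cadmium and 114, 118 and 116 CPM in water. For PLK1 in wild type they read 53.4, 54.6 and 60.4 CPM with zinc, 81.99, 78.01 and 81.6 CPM with cadmium and 114, 115 and 115 CPM in water. In water the genotypes overlapped, whereas with zinc every LATS1/2-DKO library was above every wild-type library. Zinc changed PLK1 by -0.76 ± 0.04 (adjusted p = 3.52e-19) in LATS1/2-DKO and by -1.03 ± 0.04 (adjusted p = 4.83e-23) in wild type. Among the other entry genes, CDK1, the kinase that drives entry into mitosis, went the other way. In LATS1/2-DKO CDK1 lay at 284, 283 and 291 CPM with zinc, at 255, 266 and 274 CPM with cadmium and at 254, 236 and 240.02 CPM in water. In wild type CDK1 lay at 262, 272 and 254 CPM with zinc, at 208, 221 and 221 CPM with cadmium and at 196, 202 and 195 CPM in water. In both genotypes the zinc libraries were above the water libraries without overlap, with changes of 0.23 ± 0.03 in LATS1/2-DKO and 0.41 ± 0.03 in wild type. CCNB1, cyclin B1, the partner of CDK1, fell a little. CCNB1 in LATS1/2-DKO stood at 252, 253 and 267 CPM with zinc, 285, 282 and 284 CPM with cadmium and 301, 296 and 292 CPM in water. Wild-type CCNB1 stood at 235, 251 and 239 CPM with zinc, 258, 262 and 263 CPM with cadmium and 269.8, 272 and 272 CPM in water. Zinc and water did not overlap in either genotype, and the changes were -0.20 ± 0.03 in LATS1/2-DKO and -0.16 ± 0.03 in wild type.

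AURKA, the kinase of centrosomes and spindle poles, also fell with zinc. For AURKA, LATS1/2-DKO libraries read 112, 112 and 117 CPM with zinc, 151, 146 and 148 CPM with cadmium and 161, 157 and 155 CPM in water. For AURKA in wild type they read 104, 105 and 96.8 CPM with zinc, 128, 123 and 129 CPM with cadmium and 124, 111 and 117 CPM in water. All 3 zinc libraries were below all 3 water libraries of their genotype, with changes of -0.47 ± 0.04 in LATS1/2-DKO and -0.20 ± 0.04 in wild type. FOXM1, the transcription factor that switches on many genes of this set in G2, fell by 0.25 ± 0.03 in LATS1/2-DKO and by 0.31 ± 0.03 in wild type on the log2 scale. In LATS1/2-DKO FOXM1 lay at 146, 151 and 155 CPM with zinc, at 162, 157 and 162 CPM with cadmium and at 175, 180.2 and 181 CPM in water. In wild type FOXM1 lay at 109, 109.6 and 112 CPM with zinc, at 127, 125 and 128 CPM with cadmium and at 134, 138 and 139 CPM in water. No zinc library reached the lowest water library of its genotype. CDC25C, a phosphatase that activates CDK1, rose in wild type, by 0.20 ± 0.05, and its value in LATS1/2-DKO was 0.09 ± 0.04, which did not pass. The LATS1/2-DKO value did pass with a filter of 5 CPM in 3 libraries (0.12), the compared groups alone (0.10) and without replicate 2 of LATS1/2-DKO zinc (0.12). CDC25C in LATS1/2-DKO stood at 45.1, 44.5 and 48.5 CPM with zinc, 40.8, 41.2 and 40.1 CPM with cadmium and 44.8, 44.5 and 40.9 CPM in water. Wild-type CDC25C stood at 34.8, 35.5 and 35.7 CPM with zinc, 34.6, 34.8 and 35.5 CPM with cadmium and 31.8, 28.99 and 31.6 CPM in water. Wild-type zinc and water libraries of CDC25C did not overlap, while those of LATS1/2-DKO did. The direct test of its zinc response between genotypes did not pass. Of the remaining entry genes, CCNA2 (cyclin A2), CCNB2 and CDC25B fell in both genotypes. NEK2, a kinase of centrosome separation, did not pass in either, at -0.08 ± 0.05 in LATS1/2-DKO and -0.08 ± 0.05 in wild type.

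**Figure D2:**
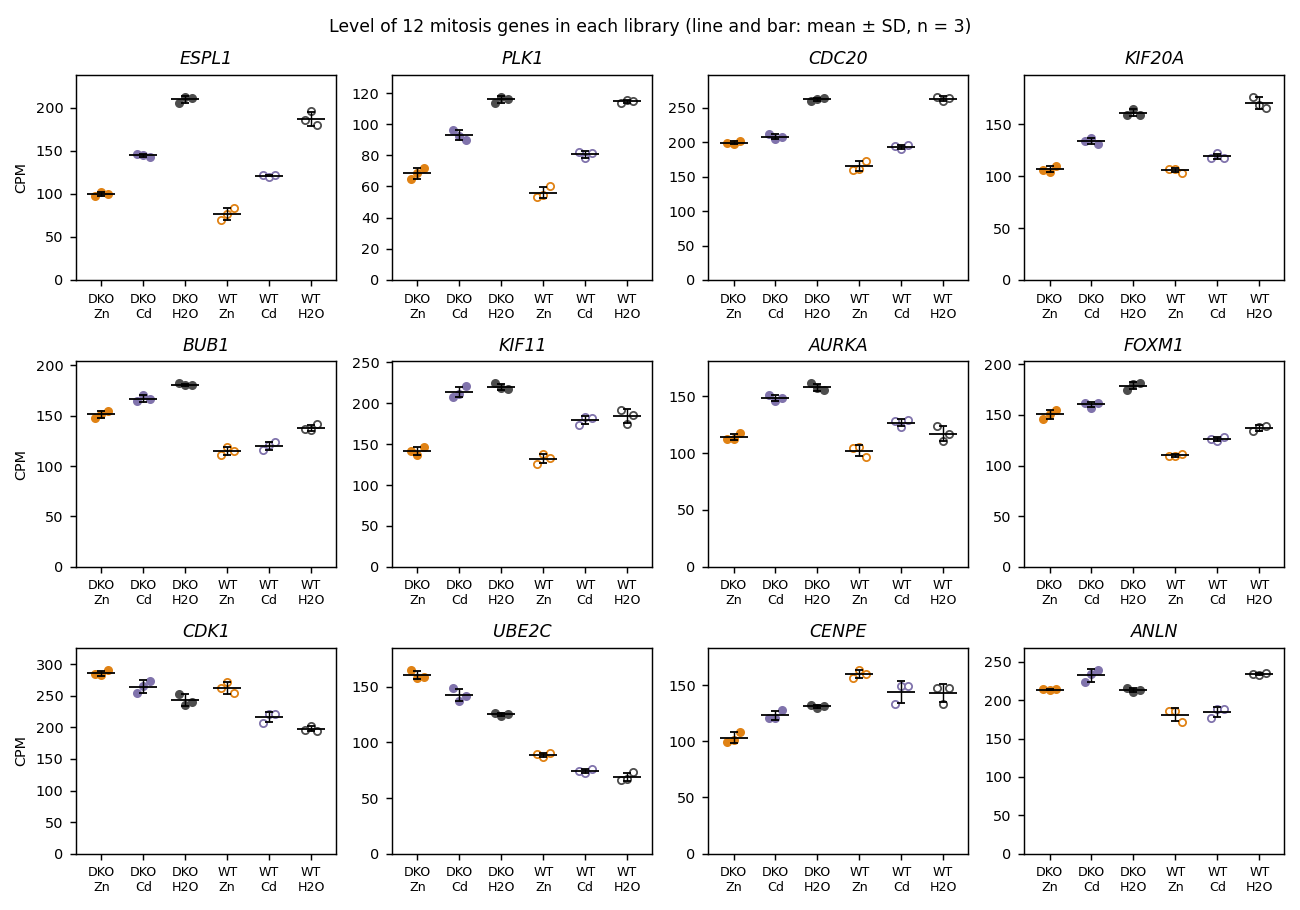
Level in CPM (y axis) of 12 mitosis genes in each of the 18 libraries (points), grouped by genotype and treatment (x axis), with filled points for LATS1/2-DKO, open points for wild type, and the mean ± SD of 3 libraries. ESPL1 and PLK1 are lowest with zinc, higher with cadmium and highest in water in both genotypes, CDK1 and UBE2C are highest with zinc, and CENPE is lowest in zinc-treated LATS1/2-DKO.

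The spindle checkpoint, which holds anaphase until every chromosome is attached, had 5 of 5 members lower with zinc in LATS1/2-DKO and 4 of 5 lower in wild type. Among all genes 27.7% were lower with zinc in LATS1/2-DKO and 32.0% in wild type. BUB1B, the checkpoint protein BubR1, fell the most of them in both genotypes. For BUB1B, LATS1/2-DKO libraries read 78.6, 76.2 and 81.7 CPM with zinc, 93.7, 97.1 and 100.4 CPM with cadmium and 121, 119 and 116 CPM in water. For BUB1B in wild type they read 61.8, 67.9 and 67.8 CPM with zinc, 76.9, 77.5 and 78.7 CPM with cadmium and 109, 106 and 109 CPM in water. With no overlap between zinc and water, its changes were -0.59 ± 0.04 in LATS1/2-DKO and -0.71 ± 0.04 in wild type. BUB1, the checkpoint kinase at kinetochores, changed by about the same amount in each genotype, -0.26 ± 0.03 in LATS1/2-DKO and -0.27 ± 0.03 in wild type. In LATS1/2-DKO BUB1 lay at 148, 152 and 154 CPM with zinc, at 164, 170.3 and 167 CPM with cadmium and at 182, 180.4 and 180.1 CPM in water. In wild type BUB1 lay at 111, 119 and 115 CPM with zinc, at 116, 121 and 124 CPM with cadmium and at 136, 135 and 142 CPM in water. Its zinc libraries lay below all water libraries of the same genotype. In the chromosomal passenger complex, which corrects faulty attachments, the scaffold INCENP and CDCA8 (borealin) fell in both genotypes. BIRC5 (survivin) read -0.02 ± 0.03 in LATS1/2-DKO, which did not pass, and -0.07 ± 0.03 (adjusted p = 0.0473) in wild type. That wild-type call was lost with the counts of the strand that holds most reads (-0.05), with DESeq2 (-0.05), and without any 1 of replicates 2 or 3 of wild-type water, 1 or 2 of wild-type zinc, 3 of wild-type cadmium, 1, 2 or 3 of LATS1/2-DKO zinc and 3 of LATS1/2-DKO cadmium (values of -0.07 to -0.05). AURKB, its kinase, did not pass in LATS1/2-DKO, at 0.04 ± 0.03, and rose in wild type, by 0.20 ± 0.04. AURKB in LATS1/2-DKO stood at 119.9, 129.6 and 122 CPM with zinc, 107, 100.4 and 103 CPM with cadmium and 124, 118 and 119.6 CPM in water. Wild-type AURKB stood at 106, 105 and 111 CPM with zinc, 87.98, 87.99 and 87.5 CPM with cadmium and 95.3, 93.3 and 92.1 CPM in water. The wild-type zinc libraries of AURKB were all above the water libraries, and those of LATS1/2-DKO overlapped with water.

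Among the genes of anaphase onset, CDC20, the activator of the anaphase-promoting complex, fell. For CDC20, LATS1/2-DKO libraries read 199, 197 and 202 CPM with zinc, 213, 205 and 207 CPM with cadmium and 259, 263 and 264 CPM in water. For CDC20 in wild type they read 160.3, 161 and 173 CPM with zinc, 194, 189.96 and 196 CPM with cadmium and 266, 259.6 and 264 CPM in water. Zinc, cadmium and water libraries of CDC20 were separate in both genotypes, with zinc lowest and water highest. The changes of CDC20 with zinc were -0.40 ± 0.03 (adjusted p = 1.28e-14) in LATS1/2-DKO and -0.67 ± 0.03 (adjusted p = 1.49e-21) in wild type. UBE2C, the ubiquitin-conjugating enzyme of the same complex, rose. In LATS1/2-DKO UBE2C lay at 165, 158 and 159 CPM with zinc, at 149, 137 and 141 CPM with cadmium and at 126, 124 and 126 CPM in water. In wild type UBE2C lay at 89.2, 87.1 and 90.7 CPM with zinc, at 74.6, 72.9 and 75.9 CPM with cadmium and at 66.5, 67.02 and 73.1 CPM in water. Zinc libraries were above water libraries without overlap, with changes of 0.36 ± 0.03 in LATS1/2-DKO and 0.37 ± 0.04 in wild type. PTTG1, securin, the inhibitor of separase, fell by 0.11 ± 0.03 in LATS1/2-DKO and by 0.10 ± 0.03 in wild type on the log2 scale, a smaller change than that of ESPL1. In wild type that call was lost without replicate 3 of water or replicate 2 of zinc (both -0.08).

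Most kinesins of the spindle and the midzone fell with zinc. KIF11, the motor that pushes spindle poles apart, had the third strongest fall in LATS1/2-DKO. KIF11 in LATS1/2-DKO stood at 142, 137 and 146 CPM with zinc, 208, 212 and 221 CPM with cadmium and 224, 218 and 217 CPM in water. Wild-type KIF11 stood at 126, 138 and 133 CPM with zinc, 173, 183 and 182 CPM with cadmium and 192, 175 and 186 CPM in water. Its zinc libraries were far below both water and cadmium libraries, which overlapped, and the changes with zinc were -0.64 ± 0.04 (adjusted p = 2.44e-18) in LATS1/2-DKO and -0.48 ± 0.04 (adjusted p = 1.51e-14) in wild type. KIF20A, a midzone kinesin that carries the passenger complex, fell by 0.59 ± 0.03 in LATS1/2-DKO and by 0.69 ± 0.03 in wild type on the log2 scale. For KIF20A, LATS1/2-DKO libraries read 106, 104 and 109.5 CPM with zinc, 134, 137 and 131 CPM with cadmium and 159, 165 and 159 CPM in water. For KIF20A in wild type they read 107, 106 and 103 CPM with zinc, 117, 122 and 118 CPM with cadmium and 177, 169 and 166 CPM in water. Zinc, cadmium and water libraries of KIF20A were separate in both genotypes. KIF2C, KIF4A, KIF23 and TPX2 also fell in both. KIF14, another kinesin of cytokinesis, rose in wild type by 0.13 ± 0.05 and did not pass in LATS1/2-DKO, at 0.04 ± 0.05. The direct test of its zinc response between genotypes did not pass. In LATS1/2-DKO KIF14 lay at 61.4, 66.2 and 69.5 CPM with zinc, at 56.8, 61.8 and 64.2 CPM with cadmium and at 65.8, 64.03 and 62.6 CPM in water. In wild type KIF14 lay at 76.5, 78.7 and 83.1 CPM with zinc, at 61.4, 69.7 and 70.05 CPM with cadmium and at 75.1, 70.98 and 72.1 CPM in water. Zinc and water libraries of KIF14 overlapped in LATS1/2-DKO and did not in wild type, where the call was lost without replicate 2 or 3 of water or replicate 3 of zinc (values of 0.10 to 0.12). PRC1, read at only 3.17 to 7.49 CPM, rose with zinc by 0.29 ± 0.13 in LATS1/2-DKO and by 0.39 ± 0.12 in wild type. PRC1 in LATS1/2-DKO stood at 4.24, 4.11 and 3.76 CPM with zinc, 5.55, 5.39 and 6.44 CPM with cadmium and 3.35, 3.39 and 3.17 CPM in water. Wild-type PRC1 stood at 5.45, 6.52 and 4.56 CPM with zinc, 6.33, 7.42 and 7.49 CPM with cadmium and 3.72, 4.42 and 4.37 CPM in water. Its standard errors were the widest of the set. The zinc call in LATS1/2-DKO was lost without any 1 of replicates 1, 2 or 3 of LATS1/2-DKO water, 1 or 2 of LATS1/2-DKO zinc, 1 or 2 of wild-type water, 1 of wild-type zinc and 3 of wild-type cadmium (values of 0.26 to 0.31). That in wild type was lost without replicate 2 of zinc (0.25). TOP2A, the topoisomerase that untangles chromosomes, fell by 0.50 ± 0.03 in LATS1/2-DKO and by 0.30 ± 0.03 in wild type on the log2 scale. For TOP2A, LATS1/2-DKO libraries read 593, 582 and 615 CPM with zinc, 784, 811 and 822 CPM with cadmium and 856, 849 and 833 CPM in water. For TOP2A in wild type they read 537, 565 and 519 CPM with zinc, 525, 575 and 555 CPM with cadmium and 683, 631 and 675 CPM in water. In LATS1/2-DKO the cadmium libraries of TOP2A lay just under the water libraries and the zinc libraries well under both, while in wild type the metals overlapped below water.

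Cadmium also lowered more of the set than it raised. In LATS1/2-DKO 21 of the 42 fell and 5 rose, against 23.8% lower and 23.2% higher among all tested genes. In wild type 28 fell and 9 rose, against 31.7% lower and 30.0% higher among all genes. The median log2 change of the 42 was -0.09 in LATS1/2-DKO and -0.16 in wild type, beside all-gene medians of -0.002 and -0.014, and no member changed 2-fold, beside 6.52% of all genes in LATS1/2-DKO and 14.0% in wild type. Scaling to library size alone moves the median of all genes to -0.12 in LATS1/2-DKO and -0.13 in wild type. On that scale 35 members fell and 2 rose in LATS1/2-DKO, beside 7401 lower and 2989 higher of all genes. In wild type 32 members fell and 3 rose, beside 8063 lower and 4438 higher of all genes. Both genotypes shared 20 members that fell with cadmium and 4 that rose, CDK1, BUB3, UBE2C and PRC1, where the shares of all genes are not given here. AURKA fell in LATS1/2-DKO, -0.09 ± 0.04, and rose in wild type, 0.12 ± 0.04, where the wild-type value with library size alone was -0.003. Single libraries decided both calls of AURKA. That in LATS1/2-DKO was lost without replicate 1 or 2 of water or replicate 2 or 3 of cadmium (values of -0.09 to -0.07), and that in wild type without replicate 2 of water (0.07).

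ESPL1 again fell the most, by 0.53 ± 0.04 in LATS1/2-DKO and by 0.63 ± 0.04 in wild type on the log2 scale. KIF20A and PLK1 followed in wild type, with -0.52 ± 0.03 and -0.51 ± 0.04, where LATS1/2-DKO had -0.27 ± 0.03 and -0.31 ± 0.04. In LATS1/2-DKO the next lowest were MKI67, CDCA8 and CDC20. MKI67 encodes Ki-67, the proliferation marker that coats mitotic chromosomes. In LATS1/2-DKO MKI67 lay at 555, 601 and 614 CPM with zinc, at 549.7, 604 and 614 CPM with cadmium and at 747, 771 and 756 CPM in water. In wild type MKI67 lay at 636, 694 and 593 CPM with zinc, at 525, 567 and 574 CPM with cadmium and at 697, 649.7 and 689 CPM in water. Its cadmium libraries were below all water libraries of their genotype, with changes of -0.36 ± 0.04 in LATS1/2-DKO and -0.29 ± 0.04 in wild type. CDCA8, borealin of the passenger complex, changed by -0.33 ± 0.04 in LATS1/2-DKO and -0.20 ± 0.04 in wild type. CDCA8 in LATS1/2-DKO stood at 62.1, 61.5 and 65.3 CPM with zinc, 73.6, 69.3 and 74.6 CPM with cadmium and 90.8, 89.2 and 94.4 CPM in water. Wild-type CDCA8 stood at 52.5, 51.5 and 52.7 CPM with zinc, 73.8, 74.4 and 72.97 CPM with cadmium and 85.2, 84.8 and 84.8 CPM in water. In both genotypes its libraries were lowest with zinc, higher with cadmium and highest in water, with no overlap.

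Some members rose with cadmium. BUB3, the checkpoint protein that brings BUB1 and BUB1B to kinetochores, fell with zinc and rose with cadmium in both genotypes. For BUB3, LATS1/2-DKO libraries read 241, 239 and 237 CPM with zinc, 300.4, 314 and 312 CPM with cadmium and 268, 263 and 259.7 CPM in water. For BUB3 in wild type they read 229, 234 and 229.9 CPM with zinc, 306, 316 and 318 CPM with cadmium and 264, 265 and 267 CPM in water. The 3 treatments were separate, with water in the middle. BUB3 changed with cadmium by 0.23 ± 0.03 in LATS1/2-DKO and 0.24 ± 0.03 in wild type, and with zinc by -0.14 ± 0.03 and -0.20 ± 0.03. NDC80, a subunit of the complex that binds microtubules at kinetochores, rose with cadmium in wild type by 0.33 ± 0.04 and did not pass in LATS1/2-DKO, at 0.10 ± 0.04. The LATS1/2-DKO value did pass with the strand column that holds most reads (0.11), a filter of 5 CPM in 3 libraries (0.12) and the compared groups alone (0.11). It also passed without replicate 1 of LATS1/2-DKO water (0.14). In LATS1/2-DKO NDC80 lay at 46.3, 47.9 and 47.5 CPM with zinc, at 60.6, 61.5 and 59.6 CPM with cadmium and at 60.7, 54.2 and 55.5 CPM in water. In wild type NDC80 lay at 57.9, 62.7 and 62.1 CPM with zinc, at 77.7, 78.6 and 81.5 CPM with cadmium and at 67.4, 58.9 and 63.5 CPM in water. Wild-type cadmium libraries of NDC80 were above all other libraries of the series. TPX2, the activator of AURKA on the spindle, rose in wild type by 0.16 ± 0.03, and its value in LATS1/2-DKO was -0.04 ± 0.03, which did not pass. TPX2 in LATS1/2-DKO stood at 354, 356 and 376 CPM with zinc, 443, 429 and 435 CPM with cadmium and 453, 441 and 447 CPM in water. Wild-type TPX2 stood at 287, 285 and 283 CPM with zinc, 383, 387 and 378 CPM with cadmium and 352, 330.2 and 348 CPM in water. In wild type the cadmium libraries of TPX2 lay above the water libraries, and in LATS1/2-DKO they overlapped with them. The rise of PRC1 was the largest of the set, 0.81 ± 0.12 in LATS1/2-DKO and 0.75 ± 0.11 in wild type, at the low counts and with the overlapping gene named above. In the remaining wild-type rises, CDC25C changed by 0.18 ± 0.05, CENPA by 0.17 ± 0.05, CDK1 by 0.13 ± 0.03 and UBE2C by 0.11 ± 0.04, and in LATS1/2-DKO CDK1 changed by 0.12 ± 0.03 and UBE2C by 0.19 ± 0.03. Scaled to library size alone, CDC25C, CENPA, CDK1 and TPX2 did not pass in wild type and UBE2C read -0.01 there, and in LATS1/2-DKO CDK1 (0.01) and UBE2C (0.08) did not pass either. The wild-type call of UBE2C was also lost without replicate 1 or 2 of water or replicate 3 of cadmium (values of 0.08 to 0.10).

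Set directly against zinc, most of these mRNAs were higher with cadmium in LATS1/2-DKO, and 21 of them in wild type. In LATS1/2-DKO 28 of the 42 were higher with cadmium than with zinc and 4 were lower, against 24.0% higher and 24.3% lower among all genes. In wild type 10 were lower, against 27.3% higher and 25.0% lower. KIF11 had the largest difference in LATS1/2-DKO, 0.59 ± 0.04, and ESPL1 in wild type, 0.67 ± 0.04, with 0.54 ± 0.04 for ESPL1 in LATS1/2-DKO. PLK1 was higher with cadmium by 0.45 ± 0.04 in LATS1/2-DKO and 0.52 ± 0.04 in wild type. The 4 members lower with cadmium in LATS1/2-DKO were AURKB, CDC25C, UBE2C and CDK1, at -0.26 ± 0.03, -0.18 ± 0.05, -0.17 ± 0.03 and -0.11 ± 0.03. In wild type HMMR, TTK and CENPF were the lowest.

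HMMR, a spindle protein also known as RHAMM, changed by -0.44 ± 0.04 in wild type, cadmium over zinc. For HMMR, LATS1/2-DKO libraries read 62.4, 62.2 and 67.6 CPM with zinc, 62.8, 62.99 and 65.5 CPM with cadmium and 72.4, 73.8 and 73.1 CPM in water. For HMMR in wild type they read 78.4, 77.9 and 73.5 CPM with zinc, 53.6, 59.1 and 56.2 CPM with cadmium and 64.3, 59.8 and 67.7 CPM in water. Wild-type HMMR was highest with zinc and lowest with cadmium without overlap, while LATS1/2-DKO libraries of both metals overlapped and lay below water. TTK, the checkpoint kinase MPS1, changed by -0.32 ± 0.04 in wild type and by 0.18 ± 0.04 in LATS1/2-DKO, cadmium over zinc. In LATS1/2-DKO TTK lay at 69.3, 65.4 and 71.6 CPM with zinc, at 75.8, 78.2 and 80.4 CPM with cadmium and at 89.5, 88.2 and 92.1 CPM in water. In wild type TTK lay at 83.6, 85.7 and 86.5 CPM with zinc, at 66.7, 70.1 and 68.2 CPM with cadmium and at 82.1, 87.7 and 91.3 CPM in water. In wild type cadmium was lowest and zinc overlapped with water, and in LATS1/2-DKO zinc was lowest. CENPF, a large centromere and kinetochore protein, changed by -0.32 ± 0.04 in wild type, cadmium over zinc. CENPF in LATS1/2-DKO stood at 265, 280.3 and 294 CPM with zinc, 267, 289 and 294 CPM with cadmium and 332, 345 and 334 CPM in water. Wild-type CENPF stood at 351, 363 and 330.2 CPM with zinc, 269.8, 288 and 279.6 CPM with cadmium and 369, 343 and 369 CPM in water. Wild-type CENPF was lowest with cadmium, and the LATS1/2-DKO libraries of the metals overlapped below water. DLGAP5, a spindle protein also called HURP, was lower with cadmium than with zinc in wild type, -0.23 ± 0.03. For DLGAP5, LATS1/2-DKO libraries read 125, 123 and 127 CPM with zinc, 116, 119 and 124 CPM with cadmium and 127, 123 and 124 CPM in water. For DLGAP5 in wild type they read 152, 161 and 155 CPM with zinc, 128, 134 and 137 CPM with cadmium and 153, 145 and 154 CPM in water. The 9 LATS1/2-DKO libraries of DLGAP5 lay between 116 and 127 CPM, under all wild-type libraries. CDK1, AURKB, CENPE, UBE2C, KIF14 and MKI67 were the other members lower with cadmium than with zinc in wild type, at -0.29 to -0.15.

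Between genotypes, most of the set was higher in LATS1/2-DKO. With zinc 26 of the 42 were higher and 12 lower, against 34.0% higher and 32.7% lower among all genes. With cadmium 31 were higher and 6 lower, against 32.6% higher and 34.5% lower. In water 26 were higher and 10 lower, against 30.8% higher and 32.1% lower. Scaled only to library size, 28 members were higher and 6 lower in water, beside 6700 higher and 5417 lower of all genes. The median log2 difference was 0.15 with zinc, 0.19 with cadmium and 0.16 in water, beside all-gene medians of 0.003, -0.02 and -0.02. A set of 21 members was higher in LATS1/2-DKO under all 3 treatments and 6 were lower under all 3, CCNA2, CENPE, NDC80, DLGAP5, KIF14 and PRC1. The share of all genes alike under all 3 treatments is not given here, so these counts have no background. No member differed 2-fold, beside 16.3% of all genes with zinc, 16.5% with cadmium and 14.7% in water.

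**Figure D3:**
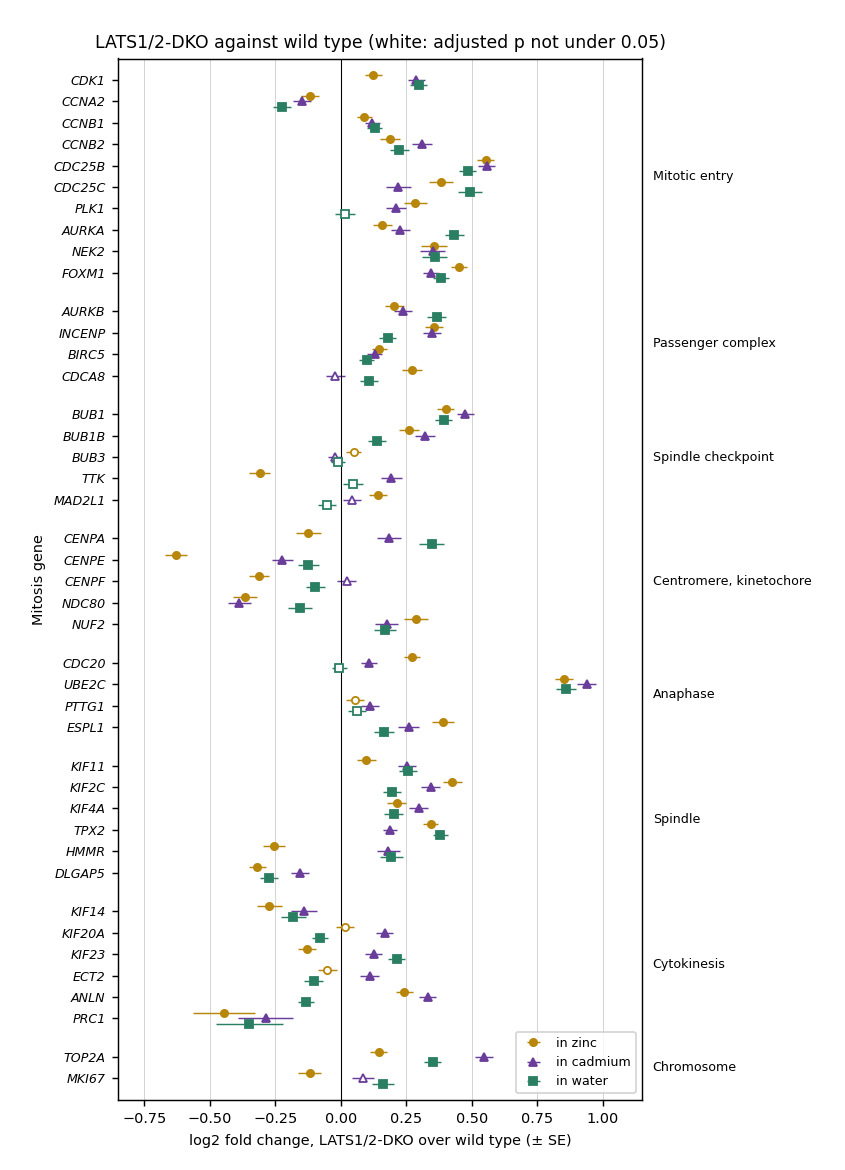
Log2 fold change of LATS1/2-DKO over wild type (x axis, ± SE, n = 3 libraries per group) for the 42 mitosis genes (y axis, by role) with zinc (circles), with cadmium (triangles) and in water (squares). White symbols did not pass an adjusted p under 0.05. UBE2C stands apart on the right, at 0.85, 0.94 and 0.86, and CENPE with zinc lies farthest to the left, at -0.63.

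UBE2C had the largest genotype difference, 0.85 ± 0.04 (adjusted p = 1.93e-22) with zinc, 0.94 ± 0.04 (adjusted p = 1.59e-23) with cadmium and 0.86 ± 0.04 (adjusted p = 4.59e-22) in water. As its levels above show, every LATS1/2-DKO library of UBE2C was above every wild-type library. CDC25B, a phosphatase that starts CDK1 activation at the centrosome, followed with 0.55 ± 0.03, 0.56 ± 0.03 and 0.48 ± 0.03 in the same order. In LATS1/2-DKO CDC25B lay at 182, 184 and 181 CPM with zinc, at 185, 182 and 181 CPM with cadmium and at 202, 206 and 206 CPM in water. In wild type CDC25B lay at 124, 122 and 128 CPM with zinc, at 125, 119 and 129 CPM with cadmium and at 140.4, 153 and 145 CPM in water. The 9 LATS1/2-DKO libraries of CDC25B lay at 181 to 206 CPM and the 9 wild-type libraries at 119 to 153 CPM. FOXM1 was higher in LATS1/2-DKO by 0.45 ± 0.03 with zinc, 0.34 ± 0.03 with cadmium and 0.38 ± 0.03 in water, and its genotypes did not overlap under any treatment. BUB1 differed by 0.40 ± 0.03, 0.48 ± 0.03 and 0.39 ± 0.03, likewise without overlap. CDC25C differed by 0.49 ± 0.05 in water and TOP2A by 0.55 ± 0.03 with cadmium. The passenger complex was higher in LATS1/2-DKO in 4 of 4 members with zinc, 3 of 4 with cadmium and 4 of 4 in water, and the entry genes in 9, 9 and 8 of 10. Among all genes 34.0%, 32.6% and 30.8% were higher in the same order.

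Lower in LATS1/2-DKO was CENPE, the kinesin that carries chromosomes to the spindle equator, by -0.63 ± 0.04 with zinc, -0.22 ± 0.04 with cadmium and -0.12 ± 0.04 in water. CENPE in LATS1/2-DKO stood at 99.6, 102 and 108 CPM with zinc, 121, 121 and 128 CPM with cadmium and 133, 129 and 131 CPM in water. Wild-type CENPE stood at 156, 163 and 159.9 CPM with zinc, 133, 149.5 and 149 CPM with cadmium and 148, 134 and 147 CPM in water. Every LATS1/2-DKO library of CENPE was below every wild-type library of the same treatment. NDC80 differed by -0.37 ± 0.05, -0.39 ± 0.04 and -0.16 ± 0.04, and DLGAP5 by -0.32 ± 0.03, -0.16 ± 0.03 and -0.27 ± 0.03. CCNA2, the cyclin of S phase and mitotic entry, differed by -0.12 ± 0.04, -0.15 ± 0.03 and -0.23 ± 0.03. For CCNA2, LATS1/2-DKO libraries read 85.1, 84.6 and 88.04 CPM with zinc, 107, 109.8 and 109.9 CPM with cadmium and 132, 124 and 129 CPM in water. For CCNA2 in wild type they read 89.3, 94.6 and 96.05 CPM with zinc, 116, 124 and 122 CPM with cadmium and 152, 150.4 and 148 CPM in water. Its genotypes were separate under every treatment, and in both of them zinc was lowest and water highest. KIF14 was lower in LATS1/2-DKO by -0.27 ± 0.05, -0.14 ± 0.05 and -0.18 ± 0.05, and PRC1 by -0.45 ± 0.12, -0.29 ± 0.11 and -0.35 ± 0.13. The call of KIF14 with cadmium was lost without replicate 1 of LATS1/2-DKO or replicate 2 or 3 of wild type (-0.12 to -0.09). That of PRC1 with cadmium was lost without replicate 1 or 2 of LATS1/2-DKO or replicate 2 or 3 of wild type (-0.26 to -0.25), and that in water without replicate 3 of LATS1/2-DKO or replicate 2 or 3 of wild type (-0.32 to -0.31).

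A set of 8 members was higher in LATS1/2-DKO under one treatment and lower under another: TTK, CENPA, HMMR, KIF20A, KIF23, ECT2, ANLN and MKI67. How many of all genes did so is not given here. CENPA was lower in LATS1/2-DKO with zinc, -0.12 ± 0.05, and higher with cadmium, 0.18 ± 0.05, and in water, 0.35 ± 0.05. In LATS1/2-DKO CENPA lay at 25.9, 27.2 and 27.01 CPM with zinc, at 33.9, 32.8 and 34.97 CPM with cadmium and at 34.4, 33.4 and 33.7 CPM in water. In wild type CENPA lay at 28.3, 29.5 and 29.6 CPM with zinc, at 29.6, 29.4 and 30.5 CPM with cadmium and at 28.2, 25.4 and 26.4 CPM in water. With zinc the LATS1/2-DKO libraries of CENPA lay under the wild-type libraries, and with cadmium and in water above them. Without replicate 1 of LATS1/2-DKO or replicate 3 of wild type the difference with zinc, -0.10 and -0.12, did not pass. TTK was lower with zinc, -0.31 ± 0.04, and higher with cadmium, 0.19 ± 0.04. HMMR was lower with zinc, -0.26 ± 0.04, and higher with cadmium, 0.18 ± 0.04, and in water, 0.19 ± 0.04. KIF23, the kinesin of the centralspindlin complex, differed by -0.13 ± 0.03 with zinc, 0.12 ± 0.03 with cadmium and 0.21 ± 0.03 in water. KIF23 in LATS1/2-DKO stood at 105, 105 and 107 CPM with zinc, 136, 139 and 136 CPM with cadmium and 163, 158 and 153 CPM in water. Wild-type KIF23 stood at 116, 115 and 117 CPM with zinc, 125, 128 and 125 CPM with cadmium and 144, 132 and 133 CPM in water. In LATS1/2-DKO it ran from lowest with zinc to highest in water without overlap. ECT2, the exchange factor that activates RhoA at the cleavage site, was higher in LATS1/2-DKO with cadmium, 0.11 ± 0.04, and lower in water, -0.10 ± 0.04. For ECT2, LATS1/2-DKO libraries read 134, 129 and 138 CPM with zinc, 140.1, 149 and 149 CPM with cadmium and 159, 147 and 154 CPM in water. For ECT2 in wild type they read 133, 141 and 141 CPM with zinc, 129, 139.97 and 137 CPM with cadmium and 165, 161 and 169 CPM in water. Its LATS1/2-DKO libraries overlapped with wild type under zinc. The call with cadmium was lost without replicate 3 of LATS1/2-DKO (0.09) or replicate 1 of wild type (0.07), and that in water without replicate 2 of LATS1/2-DKO (-0.08). ANLN, anillin, the scaffold of the contractile ring, was higher in LATS1/2-DKO with zinc, 0.24 ± 0.03, and with cadmium, 0.33 ± 0.03, and lower in water, -0.13 ± 0.03. In LATS1/2-DKO ANLN lay at 214, 213 and 214 CPM with zinc, at 223, 234 and 239 CPM with cadmium and at 216, 210.2 and 213 CPM in water. In wild type ANLN lay at 186, 186 and 171 CPM with zinc, at 177, 188 and 189 CPM with cadmium and at 234, 233 and 235 CPM in water. In wild type both metals put ANLN below water, while LATS1/2-DKO libraries with zinc overlapped with water and those with cadmium lay above it. The cadmium rise of ANLN in LATS1/2-DKO did not pass with library size alone (0.01). KIF20A was lower in water by -0.08 ± 0.03, a call lost with library size alone (-0.03), with DESeq2 (-0.07) and without replicate 1 or 3 of LATS1/2-DKO or replicate 1 of wild type (-0.07 to -0.06). MKI67 was lower with zinc by -0.12 ± 0.04, a call lost with library size alone (-0.09), with DESeq2 (-0.12) and without replicate 1 of LATS1/2-DKO or replicate 2 of wild type (-0.08 and -0.07).

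Whether the metal response itself differed between genotypes was tested as LATS1/2-DKO minus wild type of the log2 change. For zinc the difference passed in 21 members, above 0 in 8 and below 0 in 13, against 14.1% above and 10.5% below among all genes. For cadmium it passed in 14, above 0 in 10 and below 0 in 4, against 14.0% above and 14.1% below. With a filter of 5 CPM in 3 libraries the cadmium count was 10 above and 7 below, beside 2602 above and 2429 below among all genes kept. The median difference of the 42 was -0.01 for zinc and 0.06 for cadmium, beside all-gene medians of 0.02 and 0.01.

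**Figure D4:**
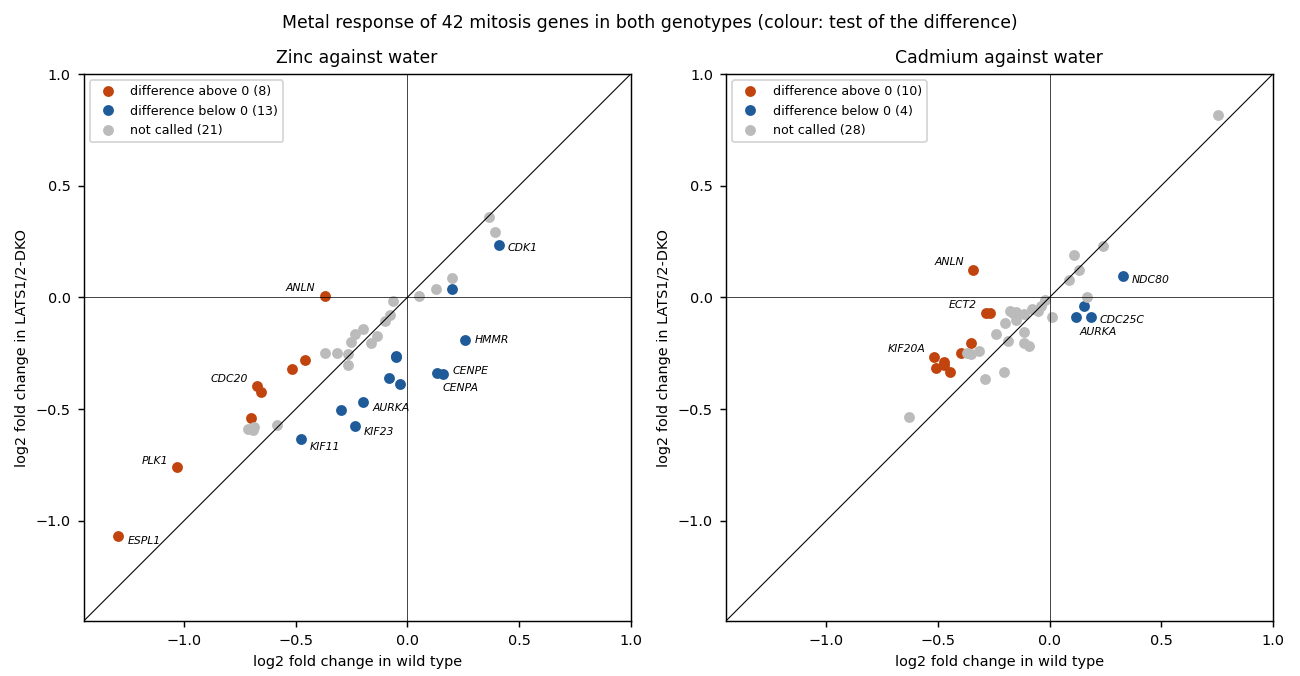
Log2 fold change with zinc, left, and cadmium, right, in LATS1/2-DKO (y axis) against that in wild type (x axis) for the 42 mitosis genes (points), with the line of equal change. Colour marks the test of the difference between genotypes, with 8 genes above and 13 below for zinc and 10 above and 4 below for cadmium, and some of the called genes are named. CENPE, CENPA and HMMR lie under the line for zinc, and ANLN lies above it for both metals.

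The genes whose zinc fall was weaker in LATS1/2-DKO were ANLN, CDC20, PLK1, KIF2C, ESPL1, MAD2L1, INCENP and CDCA8. ANLN led them, with a difference of 0.37 ± 0.05 (adjusted p = 4.18e-08), since it fell in wild type by 0.37 ± 0.03 on the log2 scale and read 0.0048 ± 0.03 in LATS1/2-DKO. CDC20 differed by 0.28 ± 0.04, PLK1 by 0.27 ± 0.06 and ESPL1 by 0.22 ± 0.06. KIF2C, a kinesin that takes microtubules apart, differed by 0.23 ± 0.05. KIF2C in LATS1/2-DKO stood at 82.99, 85.5 and 84.5 CPM with zinc, 99.01, 93.6 and 93.3 CPM with cadmium and 115, 112 and 113 CPM in water. Wild-type KIF2C stood at 62.5, 64.1 and 61.9 CPM with zinc, 76.5, 75.5 and 73.8 CPM with cadmium and 103, 95.9 and 98.4 CPM in water. Zinc, cadmium and water were separate in both genotypes. MAD2L1, the checkpoint protein MAD2 that holds CDC20, differed by 0.19 ± 0.05. For MAD2L1, LATS1/2-DKO libraries read 126, 123 and 133 CPM with zinc, 150.3, 152 and 153 CPM with cadmium and 163, 159.8 and 155 CPM in water. For MAD2L1 in wild type they read 112, 115 and 119.8 CPM with zinc, 143, 148 and 152 CPM with cadmium and 166, 169 and 160.3 CPM in water. Its LATS1/2-DKO libraries were above wild type with zinc and overlapped with wild type in water. INCENP, the scaffold of the passenger complex, differed by 0.18 ± 0.05, and CDCA8 by 0.16 ± 0.05. In LATS1/2-DKO INCENP lay at 129, 133 and 133 CPM with zinc, at 128, 129 and 132 CPM with cadmium and at 157, 160.2 and 163 CPM in water. In wild type INCENP lay at 103, 104 and 102 CPM with zinc, at 97.6, 102 and 106 CPM with cadmium and at 136, 147 and 141 CPM in water. Both metals lay below water for INCENP in both genotypes. The difference of CDCA8 did not pass without replicate 2 of LATS1/2-DKO water (0.15) or replicate 3 of LATS1/2-DKO zinc (0.14).

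The genes below 0 included CENPA, CENPE, CENPF and NDC80 of the 5 centromere and kinetochore members, where 10.5% of all genes were below 0. CENPE differed by -0.51 ± 0.06 (adjusted p = 8.63e-09), made of -0.34 ± 0.04 in LATS1/2-DKO and 0.16 ± 0.04 in wild type. CENPA differed by -0.47 ± 0.07, of -0.34 ± 0.05 in LATS1/2-DKO and 0.13 ± 0.05 in wild type. The wild-type rise of CENPA was lost without replicate 2 or 3 of water or replicate 2 or 3 of zinc (values of 0.09 to 0.13). HMMR differed by -0.45 ± 0.06, of -0.19 ± 0.04 and 0.26 ± 0.04 in that order. CENPF and NDC80 differed by -0.22 ± 0.05 and -0.21 ± 0.06, and NUF2, the partner of NDC80, had 0.12 ± 0.06, which did not pass. Without replicate 1 of LATS1/2-DKO water or replicate 2 of wild-type water the NDC80 value of -0.16 did not pass. TTK differed by -0.36 ± 0.06, KIF23 by -0.34 ± 0.05, MKI67 by -0.28 ± 0.06, AURKA by -0.27 ± 0.05 and TOP2A by -0.21 ± 0.05. Smaller differences of -0.17 to -0.16 passed for CDK1, AURKB and KIF11. That of AURKB was lost without replicate 1 of LATS1/2-DKO zinc or water (-0.13 and -0.14), and that of KIF11 without replicate 2 of LATS1/2-DKO zinc, 1 of LATS1/2-DKO water, 2 of wild-type zinc or 2 of wild-type water (-0.14 to -0.12).

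For cadmium ANLN again had the largest difference, 0.47 ± 0.05 (adjusted p = 2.65e-10), with 0.12 ± 0.03 in LATS1/2-DKO and -0.34 ± 0.03 in wild type. KIF20A differed by 0.25 ± 0.04 and ECT2 by 0.21 ± 0.05. TOP2A, PLK1, BUB1B, INCENP, KIF2C, TTK and CDC20 also lay above 0, at 0.11 to 0.20. The call of KIF2C was lost without replicate 1 of LATS1/2-DKO cadmium, 3 of wild-type cadmium or 1 of wild-type water (0.12 to 0.13). That of TTK was lost without replicate 2 or 3 of LATS1/2-DKO cadmium, 1 or 2 of LATS1/2-DKO water, 1 or 3 of wild-type cadmium, 2 of wild-type zinc or 2 or 3 of wild-type water (0.11 to 0.15), and also with the strand column that holds most reads (0.14) and with DESeq2 (0.14). That of CDC20 was lost without replicate 1 or 3 of LATS1/2-DKO cadmium, 1, 2 or 3 of LATS1/2-DKO water, 1 or 2 of wild-type cadmium or 1 or 3 of wild-type water (0.10 to 0.12). The 4 members below 0 were CDC25C, NDC80, AURKA and TPX2, at -0.27 ± 0.07, -0.23 ± 0.06, -0.20 ± 0.05 and -0.19 ± 0.04. Of the 6 members not given library by library, CCNB2 ran from 64.3 to 88.3 CPM over all 18 libraries, NEK2 from 32.8 to 49.3, BIRC5 from 189.7 to 224, NUF2 from 30.8 to 49.9, PTTG1 from 94.3 to 114 and KIF4A from 70.5 to 123 CPM. None of these 6 passed a test of the difference of either response.

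Replicate 3 of wild type with zinc, the library that differed most from its group, decided some single calls. Without it 28 members fell and 7 rose with zinc in wild type, 26 were higher and 11 lower in LATS1/2-DKO with zinc, and 9 lay above and 13 below 0 for the difference of the zinc response. The wild-type zinc rises of CENPA (0.12) and KIF14 (0.10) were lost, as was the call of CENPA between genotypes with zinc (-0.12). NEK2 passed as lower with zinc in wild type (-0.12). In the fit of all libraries 32.0% of all genes fell and 29.4% rose with zinc in wild type. Between genotypes with zinc 34.0% were higher and 32.7% lower, and 14.1% lay above and 10.5% below 0 for the difference. Shares of all genes without that library are not given here.

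Among 104 other genes of mitosis, listed by function, zinc lowered 64 and raised 17 in LATS1/2-DKO and lowered 57 and raised 26 in wild type. These are 61.5% lower and 16.3% higher in LATS1/2-DKO, beside 27.7% and 28.2% of all genes, and 54.8% lower and 25.0% higher in wild type, beside 32.0% and 29.4%. Cadmium lowered 44 and raised 21 in LATS1/2-DKO and lowered 47 and raised 34 in wild type. The 32.7% higher in wild type lay near the 30.0% of all genes, and the other shares were 42.3% lower and 20.2% higher in LATS1/2-DKO, beside 23.8% and 23.2%, and 45.2% lower in wild type, beside 31.7%. Their median log2 change with zinc was -0.21 in each genotype, and with cadmium -0.06 in each. By list, 19 of 22 further spindle and cytokinesis genes fell with zinc in LATS1/2-DKO and 15 in wild type. Of 19 cohesin and condensin genes 14 fell in LATS1/2-DKO and 11 in wild type, and of 33 further kinetochore genes 15 fell in each, or 45.5%. The lowest with zinc were SKA3, of the complex that couples kinetochores to microtubules, and ARHGAP11A, a RhoA regulator. SKA3 changed by -1.21 ± 0.07 in LATS1/2-DKO and -1.37 ± 0.06 in wild type, and ARHGAP11A by -1.08 ± 0.04 and -0.9995 ± 0.04. With cadmium KIFC1, a minus-end kinesin, changed by -0.67 ± 0.04 in LATS1/2-DKO and -0.76 ± 0.04 in wild type.

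Of the 13 other entry genes 7 rose and 6 fell with zinc in LATS1/2-DKO (53.8% and 46.2%, beside 28.2% and 27.7% of all genes), and 8 rose and 5 fell in wild type (61.5% and 38.5%, beside 29.4% and 32.0%). WEE1, the kinase that holds CDK1 inactive, rose by 0.77 ± 0.04 with zinc in LATS1/2-DKO and by 1.41 ± 0.04 in wild type. With cadmium WEE1 changed by 0.95 ± 0.04 in LATS1/2-DKO and 1.86 ± 0.04 in wild type, the largest rise among the 104 in both. CENPQ, a centromere protein, changed with cadmium by 0.48 ± 0.07 in LATS1/2-DKO and 0.98 ± 0.07 in wild type. Between genotypes in water, 48 of the 104 were higher in LATS1/2-DKO and 32 lower (46.2% and 30.8%, beside 30.8% and 32.1% of all genes), with PBK, a mitotic kinase, at 1.28 ± 0.04 and SKA3 at -1.05 ± 0.06. For comparison, the 32 DNA replication genes, such as the MCM helicase, had 11 higher and 9 lower with zinc in LATS1/2-DKO and 10 higher and 16 lower in wild type, with medians of -0.002 and -0.07. The LATS1/2-DKO shares, 34.4% higher and 28.1% lower, lay near the 28.2% and 27.7% of all genes, and wild type had 31.2% higher and 50.0% lower, beside 29.4% and 32.0%. The 12 genes of the MuvB and retinoblastoma family regulators had 4 higher and 4 lower in LATS1/2-DKO and 5 higher and 2 lower in wild type with zinc, or 33.3% each way in LATS1/2-DKO and 41.7% higher and 16.7% lower in wild type.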

How the data were processed

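The 18 HEK293A libraries (6 groups of 3, grouped by the labels) were made from TRIzol-isolated RNA with a stranded TruSeq mRNA kit, per the labels' protocols. The authors deposited read counts per Ensembl gene that pool both strands, and STAR with the builds hg38 and GRCh38.p13 is named in the submitters' processing notes, without version, annotation or counter settings. GENCODE 29 gave symbols and exon lengths for 58216 of 58336 IDs. Depth was 25478614 to 37148046 counts per library, with a median BCV (coefficient of variation between replicates) of 3.93%. The lowest count of a member in any library was 95 for PRC1 and 735 for CENPA. No pair of replicate libraries agreed within sampling noise (chi-square per degree of freedom 1.61 to 5.04). Here CPM are counts over TMM-scaled library sizes. edgeR 4.0.16 (R 4.3.3, limma 3.58.1) fitted the group means of all 18 libraries to the 19393 genes that passed filterByExpr (minimum count 10), with the quasi-likelihood test, Benjamini-Hochberg adjustment over those genes and a threshold of 0.05, and was tested on simulated data. Standard errors are the log2 change over the root of F. DESeq2 1.42.0 served as an alternative. The members, lists and tests were chosen with earlier results of these data known. Values in every library are given for 10 set members, and for each comparison for the 3 highest and 3 lowest called members and those called against the majority. Of the 104 other genes at most 2 extremes each way are named. Alternatives were another size factor, library size alone, DESeq2, other low-count filters, the strand column with most reads, the compared groups alone, a replicate block and each library left out. Promoters came from RefSeq (GRCh38.p14), with 35 of the 42 members matched.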

Additional observations from a re-analysis of the deposited data

Results flagged for a closer look

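The results below were picked out because the change with a metal differed between LATS1/2-DKO and wild type in a direct test (LATS1/2-DKO minus wild type, log2 scale, edgeR's quasi-likelihood test with Benjamini-Hochberg adjustment). Among all tested genes 14.1% were above 0 and 10.5% below 0 for zinc, and 14.0% above and 14.1% below for cadmium.

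For zinc, ANLN was at 0.37, CDC20 at 0.28, PLK1 at 0.27, KIF2C at 0.23 and ESPL1 at 0.22, and each fell in wild type. MAD2L1 was at 0.19, INCENP at 0.18 and CDCA8 at 0.16. Below 0, CENPE was at -0.51, CENPA at -0.47, HMMR at -0.45, TTK at -0.36 and KIF23 at -0.34. MKI67 was at -0.28, AURKA at -0.27, CENPF at -0.22, and TOP2A and NDC80 at -0.21 each. CDK1 was at -0.17, and AURKB and KIF11 at -0.16 each.

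For cadmium, ANLN was at 0.47, KIF20A at 0.25, ECT2 at 0.21 and TOP2A at 0.20. PLK1 was at 0.19, BUB1B at 0.18, INCENP at 0.17, KIF2C and TTK at 0.15 each and CDC20 at 0.11. Below 0, CDC25C was at -0.27, NDC80 at -0.23, AURKA at -0.20 and TPX2 at -0.19. The call of TTK for cadmium was lost with the strand column that holds most reads (0.14) and without replicate 2 or 3 of LATS1/2-DKO cadmium, 1 or 2 of LATS1/2-DKO water, 1 or 3 of wild-type cadmium, 2 of wild-type zinc or 2 or 3 of wild-type water (0.11 to 0.15). Calls of CDC20 and KIF2C for cadmium, and of CDCA8, NDC80, AURKB and KIF11 for zinc, were likewise lost without single libraries, as given above. TOP2A and TTK stood below 0 for zinc and above 0 for cadmium, and whether their metal responses differ by genotype between zinc and cadmium was not tested.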

How the results depend on the processing

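For all 11 comparisons the count of members called, and that of all genes, stayed within 1.5 times its value with DESeq2 size factors, library size alone, DESeq2, no filter, a filter of 5 CPM in 3 libraries, the strand column with most reads, a replicate block and each of the 18 libraries left out. The same held with only the compared groups in the fit, which was not run for the differences of responses. With single libraries left out, members called ranged from 34 to 35 for zinc in LATS1/2-DKO, 32 to 36 for zinc in wild type, 25 to 28 for cadmium in LATS1/2-DKO and 34 to 37 for cadmium in wild type. In the same order, all genes called ranged from 9943 to 11096, 11286 to 12071, 8215 to 9365 and 11213 to 12240. The fit of all libraries tested 19393 genes. Same-numbered libraries of different groups had correlations of their deviations of -0.0249 to 0.0864, none of 45 over a chosen cutoff of 0.1, and the numbers were not taken as pairs. Such a cutoff cannot decide whether same-numbered libraries share a weaker effect. Of the 45 correlations, 36 were above the mean of the other numbers. The replicate block gave 35 members called for zinc in LATS1/2-DKO, 37 for zinc in wild type, 27 for cadmium in LATS1/2-DKO and 37 for cadmium in wild type. In the same order it gave 10995, 12025, 9301 and 12121 of all genes.

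Library size alone moved the split of higher and lower calls, to 4438 and 8063 of all genes for cadmium in wild type, 2989 and 7401 for cadmium in LATS1/2-DKO and 4197 and 7094 for zinc in LATS1/2-DKO, beside shifts of the all-gene median to -0.13, -0.12 and -0.09. It also reversed small values, to -0.00347 (AURKA) and -0.00964 (UBE2C) for cadmium in wild type, -0.01745 (NDC80) for cadmium in LATS1/2-DKO, and -0.085 (ANLN), -0.05026 (AURKB), -0.00102 (CDC25C) and -0.05249 (KIF14) for zinc in LATS1/2-DKO. ANLN with zinc in LATS1/2-DKO, near 0, also read -0.00027 with DESeq2 size factors, -0.00025 with DESeq2 and -0.0077 with no filter, and -0.00654 to 0.01513 with single libraries left out. KIF14 there ranged from -0.00519 to 0.09214. BIRC5 with zinc in LATS1/2-DKO read 0.00988 with the filter of 5 CPM. For the 207 member changes given above by value or named as a call, 5189 of 5346 recomputations kept direction and call, and the causes of the other changes were not tested. Beside losses already given, calls were lost with library size alone for CENPA and KIF14 (zinc, wild type), PRC1 (zinc, LATS1/2-DKO), CDCA8 (difference of the zinc response), and between genotypes for CENPA with zinc, KIF14 and PRC1 with cadmium and CENPE and ECT2 in water. The strand column lost AURKA (cadmium, LATS1/2-DKO) and PRC1 (between genotypes, cadmium), DESeq2 lost AURKA (cadmium, LATS1/2-DKO) and PRC1 (zinc, LATS1/2-DKO), and DESeq2 size factors lost PRC1 (zinc, LATS1/2-DKO), BIRC5 (zinc, wild type) and KIF20A (between genotypes, water). No filter lost AURKA, CENPA and UBE2C (cadmium, wild type), BIRC5 and CENPA (zinc, wild type), PRC1 (zinc, LATS1/2-DKO) and CDCA8 (difference of the zinc response). The filter of 5 CPM lost AURKA (cadmium, LATS1/2-DKO) and, with zinc in wild type, BIRC5 and PTTG1, the compared groups alone also lost these last, and both settings lost KIF20A (between genotypes, water). Calls were also gained. Among others, library size alone gave falls for NEK2 with zinc in LATS1/2-DKO (-0.17) and wild type (-0.14). It did so for BIRC5 with zinc (-0.11) and TPX2 with cadmium (-0.15) in LATS1/2-DKO. Depth limits PRC1 most, with as few as 95 counts in a library.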
